A study of Mus musculus with 8 samples.

Results

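The simple epithelial keratins Krt7, Krt8, Krt18, Krt19, Krt20, Krt23 and Krt80 and the desmosomal proteins that anchor them, encoded by Dsp, Jup and Pkp2, were taken by gene symbol. The rule uses no measured value, but the set was drawn up with earlier results of these data known. All 10 were present among the 55487 genes counted. The RNA is labelled as that of germ cells purified from testis, sorted from fetal mice by flow cytometry. The 4 libraries labelled WT (WT1 to WT4) came from littermate controls with the genotype Oct4-eGFP+/+. The 4 labelled KO (KO1 to KO4) came from animals with the genotype Rhox10-null;Oct4-eGFP+/+. Both groups thus carried the reporter on both alleles, and both were C57BL/6. The reporter marks germ cells, since sequences of the pluripotency gene Oct4 drive it. Neither fetal age nor the number of animals, litters or pools behind a library is given in the sources used here, so p-values measure the spread between these samples, which may be technical.

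Keratins are intermediate filament proteins that assemble only as pairs of a type I and a type II chain. Keratin 8 (type II) and keratin 18 (type I) form the basic pair of single-layered epithelia such as ducts, and keratins 7 and 19 join them in many ductal and glandular linings. The filaments end at desmosomes, where desmoplakin ties them to plakoglobin and plakophilin 2, which in turn bind the desmosomal cadherins. Germ cells are not an epithelium, whereas the fetal mesonephric ducts and tubules beside the testis, the surface mesothelium and the sex cords carry keratins.

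Levels are given as CPM, counts scaled to the size of the library, with libraries scaled to each other by the trimmed mean of M-values. A gene was called higher or lower at a Benjamini-Hochberg adjusted p under 0.05 in edgeR's two-sided quasi-likelihood test over 23190 genes. The libraries held 16346977 to 20311338 counts. Rhox10 itself had 17 to 25 counts in the WT-labelled libraries and 10 to 22 in the KO-labelled ones (log2 fold change -0.28, SE 0.32, edgeR adjusted p = 0.767), so its counts did not separate the labels. Which part of the gene is deleted is not given in the sources used here, so these counts may not check the labels. The label of germ cells was checked against markers. The germ-cell gene Ddx4 was at 44.5 ± 3.397 CPM (SD, n = 4) in the WT-labelled libraries and 43.4 ± 0.971 CPM (n = 4) in the KO-labelled ones. The collagen gene Col1a1 was at 2963 ± 41.7 and 2901 ± 69.3 CPM, and the Leydig cell enzyme Cyp17a1 at 1314 ± 11.9 and 1190 ± 12.4 CPM, so these somatic genes stood far above Ddx4 in CPM in all 8 libraries.

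Of the 8 genes of the set with enough counts to be tested, 6 were higher in the libraries labelled KO (Krt7, Krt8, Krt18, Krt19, Dsp and Jup) and 0 were lower. Over all genes tested, 2.35% were called higher and 2.8% lower, 5.14% in either direction. By edgeR, 0 of the 8 were lower at an unadjusted p under 0.05, and DESeq2 and limma voom each called 5 higher and 0 lower. The median log2 fold change of the 8 was 0.57, against 0.0020 over all genes tested, and as the set was chosen with earlier results known these counts are a description. The 4 called keratins differed by 1.45 to 2.02 times, and the 2 called anchors by 1.08 and 1.13 times. In bulk samples, more cells of a type and more RNA per cell cannot be told apart.

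**Figure D1:**
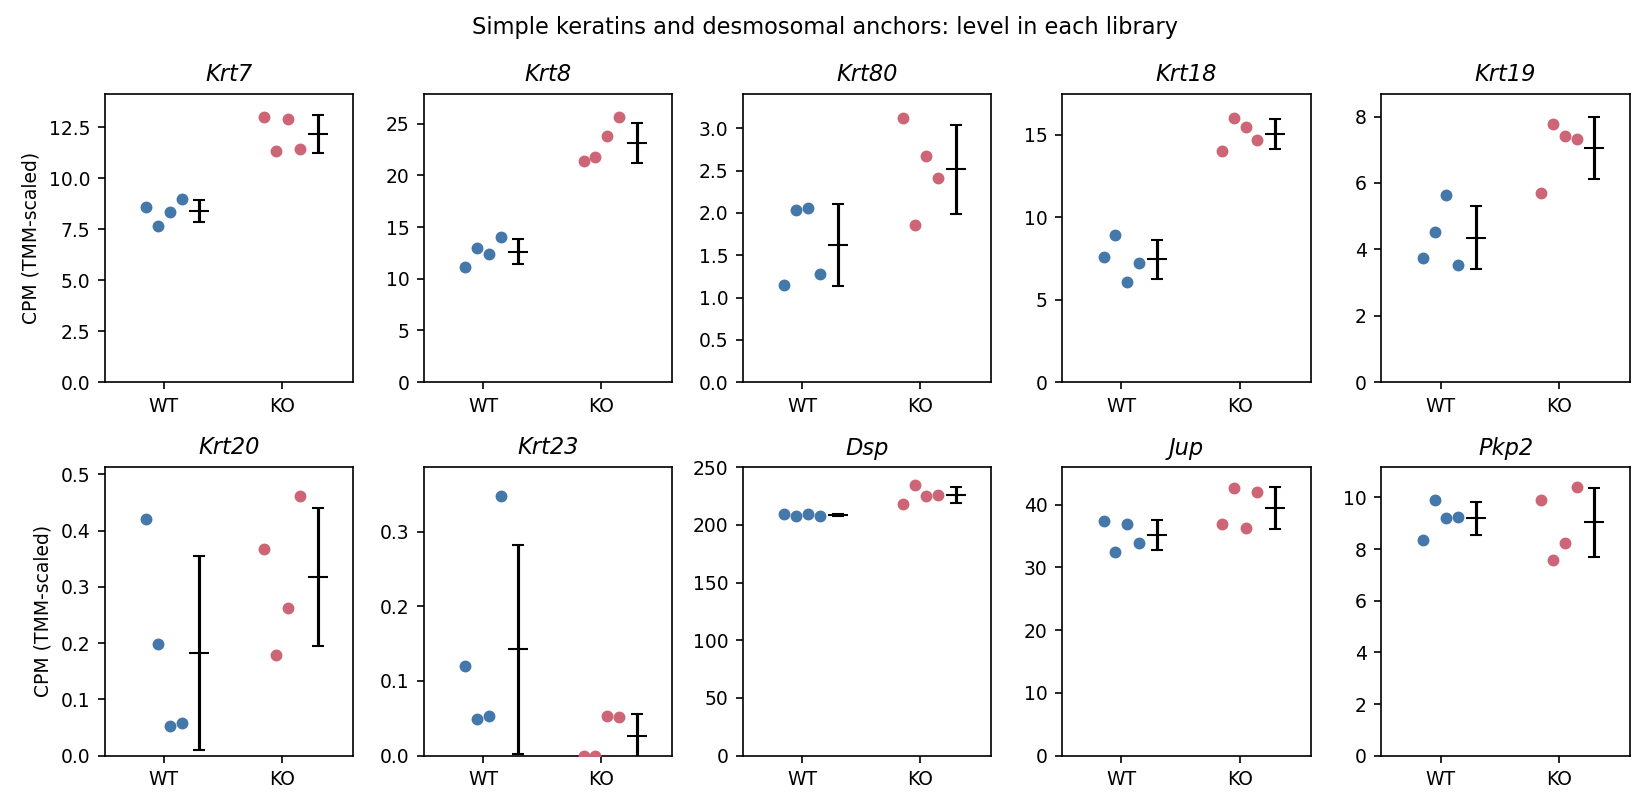
TMM-scaled CPM (vertical axis, from 0, its own scale in each panel) of the 10 genes in the 4 libraries labelled WT (blue) and the 4 labelled KO (red). Points are libraries, and the bars beside them show the mean and 1 SD. For Krt7, Krt8, Krt18, Krt19 and Dsp every library labelled KO lies above every library labelled WT.

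Krt8 and Krt18 are neighbours on mouse chromosome 15 and encode the obligate pair. In the authors' genome build, GRCm38, Krt8 (ENSMUSG00000049382) lies on the minus strand at chr15:101996698-102004482 and Krt18 on the plus strand at chr15:102028180-102032027, with 23.7 kb between them. Krt7 lies further along the same cluster on the plus strand, at chr15:101411043-101430313. Because these 3 keratins rose together and Dsp changed by a smaller factor, the RefSeq sequences around the start sites of these 4 genes are shown. Each runs 5′ to 3′ on the gene's strand from 250 bases before the start site to 30 bases after it (build GRCm38.p6). The windows are chr15:102004313-102004592 on the minus strand for Krt8, chr15:102027966-102028245 on the plus strand for Krt18, chr15:101412153-101412432 on the plus strand for Krt7 and chr13:38151044-38151323 on the plus strand for Dsp. Capitals mark matches, on either strand, to 6 short motifs. The letters TATAA were searched for the element that positions transcription starts, and GGGCGG for the element bound by Sp factors. The element bound by NF-Y was searched as CCAAT and that of AP-1 as TGANTCA. The grainyhead element was searched as AACNNGTT, and the core bound by ETS factors as AGGAAG.
Krt8: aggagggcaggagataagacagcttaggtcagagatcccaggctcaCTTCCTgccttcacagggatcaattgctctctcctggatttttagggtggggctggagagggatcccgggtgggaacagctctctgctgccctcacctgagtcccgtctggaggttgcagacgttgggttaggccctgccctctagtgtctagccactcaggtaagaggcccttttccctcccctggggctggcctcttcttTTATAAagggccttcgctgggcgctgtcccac
Krt18: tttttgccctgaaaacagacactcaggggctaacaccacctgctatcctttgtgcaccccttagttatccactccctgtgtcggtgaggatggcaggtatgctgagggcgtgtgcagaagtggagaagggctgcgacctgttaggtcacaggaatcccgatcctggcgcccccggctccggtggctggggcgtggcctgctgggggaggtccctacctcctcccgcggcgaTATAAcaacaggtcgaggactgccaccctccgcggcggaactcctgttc
Krt7: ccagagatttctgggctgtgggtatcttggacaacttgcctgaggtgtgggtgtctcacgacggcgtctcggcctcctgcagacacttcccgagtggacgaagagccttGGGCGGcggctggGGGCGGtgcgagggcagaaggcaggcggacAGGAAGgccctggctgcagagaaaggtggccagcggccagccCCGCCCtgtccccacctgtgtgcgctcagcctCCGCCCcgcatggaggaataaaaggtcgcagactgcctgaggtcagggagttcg
Dsp: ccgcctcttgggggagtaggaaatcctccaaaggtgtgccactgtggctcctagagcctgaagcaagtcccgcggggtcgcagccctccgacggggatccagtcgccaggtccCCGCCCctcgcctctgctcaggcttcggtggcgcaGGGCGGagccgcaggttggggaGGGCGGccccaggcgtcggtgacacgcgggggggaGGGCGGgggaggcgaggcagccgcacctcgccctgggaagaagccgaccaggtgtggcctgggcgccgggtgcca

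Krt8 and Krt18 each held TATAA, which 24.04% of 32851 RefSeq mouse promoters of that length hold. In Krt18 it lay 19 to 15 bases before the start site. In Krt8 it lay across the RefSeq start site, within TTATAA, where the matches on both strands overlap. That start site lies 140 bases inside the edge of the annotated Krt8 gene. Krt7 and Dsp had no TATAA in these windows and had 4 matches each to GGGCGG, which 34.7% of promoters hold, whereas Krt8 and Krt18 had none. The ETS letters AGGAAG occurred in Krt8 and Krt7 and are held by 32.9% of promoters. None of these 4 windows held CCAAT (36.1% of promoters), TGANTCA (7.46%) or AACNNGTT (3.96%). GC content was 58.6% for Krt8, 61.4% for Krt18, 65.7% for Krt7 and 72.9% for Dsp, above the median of 52.5% over all promoters. The RefSeq start site of Krt7 lies 1360 bases from the edge of its annotated gene. Promoters were matched for 7 of the 10 genes. Of those not shown, Krt20, too low to test, held AGGAAG, and TATAA at 29 to 25 bases before its start site. Jup, the other called anchor, held GGGCGG and CCAAT, and Krt23 had no match to the 6 motifs. Whether any motif goes with the changes was not tested.

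Krt8, the type II chain of the pair, had 185, 261, 235 and 243 counts in the WT-labelled libraries and 350, 364, 454 and 500 in the KO-labelled ones. Scaled to the library, that was 11.1, 12.9, 12.4 and 14.1 CPM against 21.4, 21.8, 23.8 and 25.6 CPM. Every library labelled KO was above every library labelled WT, with a gap between the groups wider than the range of either. The level was 12.6 ± 1.21 CPM (SD, n = 4) against 23.2 ± 1.97 CPM (n = 4), a 1.84-fold difference (log2 0.88, SE 0.08, edgeR adjusted p = 1.93e-21).

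Krt18, the type I partner, had 7.58, 8.92, 6.05 and 7.23 CPM in the WT-labelled libraries and 14.0, 16.02, 15.5 and 14.7 CPM in the KO-labelled ones. The groups did not overlap, which was so for 4.72% of all genes tested in the higher direction and 9.44% in either. It rose 2.02-fold, from 7.45 ± 1.18 to 15.04 ± 0.89 CPM (SD, n = 4 each, log2 1.01, SE 0.10, edgeR adjusted p = 3.17e-18). Ranked by p among the 544 genes called higher, Krt8 stood at place 10 and Krt18 at place 13. Ranked by log2 fold change they stood at places 104 and 79.

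No change in the proportion of Krt8 to Krt18 was detected. The ratio of their counts was 1.73 ± 0.311 (SD, n = 4) in the WT-labelled libraries and 1.54 ± 0.160 (n = 4) in the KO-labelled ones. The difference was -0.15 ± 0.15 (SE) on the log2 scale, and the exact two-sided permutation test gave p = 0.314 (0.393 after adjustment over the 5 ratios compared). The smallest p that this test allows with 4 against 4 is 0.0286. The 1 ratio at that floor had 0.143 after adjustment, so not passing is little evidence of an unchanged ratio. Per kilobase of exon, the level of Krt8 was 6.45 CPM and that of Krt18 5.18 CPM in the WT-labelled libraries, and 11.8 and 10.5 CPM in the KO-labelled ones.

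Part of the Krt8 signal cannot be assigned to one place in the genome. The processed pseudogene Krt8-ps (chr7:23357125-23358069, plus strand) was 98.6% identical to Krt8 over 941 bases. It had 66, 101, 111 and 96 counts in the WT-labelled libraries and 144, 165, 176 and 204 in the KO-labelled ones. It rose 1.88-fold (log2 0.91, SE 0.12, edgeR adjusted p = 1.81e-10), and its counts were 35.7 to 47.2% and 38.8 to 45.3% of those of Krt8 in the 2 groups. With the counts of both added, in an alternative chosen after seeing the data, the log2 fold change was 0.89 (SE 0.07, edgeR adjusted p = 2.37e-28). Whether reads with several positions were counted at both genes is not given in the sources used here. The sum may thus count some reads more than once, so its smaller SE and p add no support. Nor is the rise of Krt8-ps a result separate from that of Krt8, since the 2 genes may share reads. A pseudogene 90.5% identical to Krt18, Gm5200, had 1 to 7 counts in each library.

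Krt7, a type II keratin of ducts and glands, had 8.61, 7.68, 8.37 and 8.96 CPM in the WT-labelled libraries and 13.0, 11.4, 12.9 and 11.4 CPM in the KO-labelled ones. The groups did not overlap. The means were 8.41 ± 0.541 and 12.2 ± 0.913 CPM (SD, n = 4 each), a 1.45-fold rise (log2 0.54, SE 0.10, edgeR adjusted p = 2.13e-05). Counts of Krt8 per count of Krt7 were 1.51 ± 0.165 and 1.91 ± 0.249, a log2 difference of 0.34 ± 0.12 (SE), with overlap between the groups. It did not pass (exact permutation p = 0.0571, adjusted 0.143), in a test that can hardly pass after adjustment with 4 against 4.

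Krt19, the smallest type I keratin, is a marker of ducts and of mesothelium (chr11:100140810-100148665, minus strand). Its level was 3.73, 4.51, 5.63 and 3.53 CPM in the WT-labelled libraries and 5.69, 7.77, 7.40 and 7.33 CPM in the KO-labelled ones. The groups did not overlap, though the highest library labelled WT and the lowest labelled KO nearly met. It rose 1.61-fold, from 4.35 ± 0.953 to 7.05 ± 0.927 CPM (SD, n = 4 each, log2 0.69, SE 0.13, edgeR adjusted p = 5.55e-05). Counts of Krt18 per count of Krt19 were 1.78 ± 0.474 and 2.15 ± 0.209, a log2 difference of 0.32 ± 0.24 (SE, exact permutation p = 0.114, adjusted 0.190).

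Krt80, a type II keratin (chr15:101347444-101370162, minus strand), was at 1.14, 2.03, 2.05 and 1.27 CPM in the WT-labelled libraries and 3.12, 1.85, 2.68 and 2.41 CPM in the KO-labelled ones. The groups overlapped through KO2. The difference, 1.53-fold, did not pass (log2 0.61, SE 0.22, edgeR adjusted p = 0.0915). A transcript model on overlapping sequence, Gm35853, had 13 to 23 counts in each library and a log2 fold change of 0.0034.

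Krt20, the type I keratin of intestinal and urothelial lining, had 7, 4, 1 and 1 counts in the WT-labelled libraries and 6, 3, 5 and 9 in the KO-labelled ones. Krt23, another type I keratin, had 2, 1, 1 and 6 counts against 0, 0, 1 and 1. Both fell below the filter on low counts. Fitted without it, the log2 fold changes were 0.81 (SE 0.65, edgeR adjusted p = 0.693) and -2.09 (SE 1.19, edgeR adjusted p = 0.553), so no difference was detectable at this depth. The least counted of the 8 tested genes, Krt80, had at least 19 counts in every library.

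Summed over the 7 keratins, the level was 32.7, 36.3, 34.6 and 35.5 CPM in the WT-labelled libraries and 57.6, 58.9, 62.6 and 62.0 CPM in the KO-labelled ones. Both groups were tight relative to the distance between them. The means were 34.8 ± 1.53 and 60.3 ± 2.41 CPM (SD, n = 4 each), a ratio of 1.73. Krt7, Krt8, Krt18 and Krt19 made up 94.4% of the sum in the WT-labelled libraries and 95.3% in the KO-labelled ones.

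Among the anchors the fold changes were smaller in value, but the differences in mean CPM were not all smaller. Dsp differed by 17.1 CPM, Jup by 4.34 CPM and Pkp2 by -0.15 CPM. Krt8 differed by 10.5 CPM, Krt18 by 7.59 CPM, Krt7 by 3.78 CPM, Krt19 by 2.70 CPM and Krt80 by 0.89 CPM. Dsp encodes desmoplakin, the plakin that binds keratin filaments at the desmosomal plaque (chr13:38151294-38198577, plus strand). It was at 209.7, 208.1, 209.5 and 208.1 CPM in the WT-labelled libraries and 218.3, 234.7, 224.9 and 225.9 CPM in the KO-labelled ones. The 4 libraries labelled WT were nearly equal and all lay below those labelled KO. The rise was 1.08-fold, from 209 ± 0.848 to 226 ± 6.73 CPM (SD, n = 4 each, log2 0.11, SE 0.03, edgeR adjusted p = 0.000856).

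Per kilobase of exon, the level of Dsp was 21.6 CPM in the WT-labelled libraries and 23.4 CPM in the KO-labelled ones, above the 6.45 and 11.8 CPM of Krt8. Counts of Krt8 per count of Dsp were 0.0605 ± 0.00603 in the WT-labelled libraries and 0.103 ± 0.0091 in the KO-labelled ones, with no overlap. The log2 difference was 0.76 ± 0.10 (SE). The exact two-sided permutation test gave p = 0.0286, the smallest 4 against 4 allows, and 0.143 after adjustment over the 5 ratios.

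**Figure D2:**
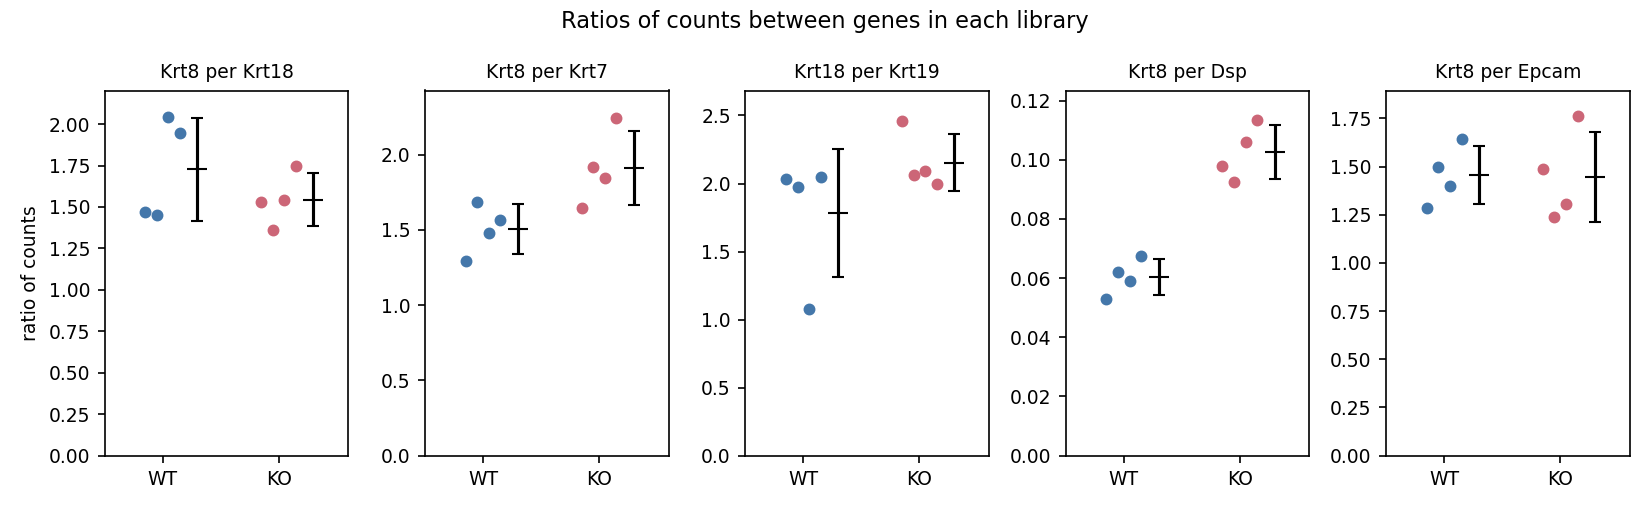
Ratio of counts (vertical axis, from 0) between pairs of genes in the 4 libraries labelled WT (blue) and the 4 labelled KO (red), with the mean and 1 SD beside the points. Of the 5 ratios, Krt8 per Dsp is the one whose groups do not overlap, while Krt8 per Epcam has nearly the same mean in both (1.46 and 1.45).

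Jup encodes plakoglobin, which is shared by desmosomes and adherens junctions (chr11:100368958-100397763, minus strand). It was at 37.4, 32.4, 36.8 and 34.0 CPM in the WT-labelled libraries and 36.9, 42.7, 36.3 and 42.1 CPM in the KO-labelled ones. KO2 and KO4 stood above all WT-labelled libraries, while KO1 and KO3 lay within their range. The means of 35.2 ± 2.38 and 39.5 ± 3.37 CPM (SD, n = 4 each) gave a log2 fold change of 0.17 (SE 0.05, edgeR adjusted p = 0.0438). That call was lost in 11 of 20 alternatives. DESeq2 gave an adjusted p of 0.232, and without KO2 or KO4 edgeR gave 0.264 and 0.240, or 0.258 and 0.135 without WT2 or WT4.

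Pkp2, which encodes plakophilin 2, was at 8.37, 9.91, 9.21 and 9.25 CPM in the WT-labelled libraries and 9.91, 7.59, 8.24 and 10.4 CPM in the KO-labelled ones (chr16:16213318-16272712, plus strand). The ranges overlapped almost entirely. The means were 9.19 ± 0.634 and 9.04 ± 1.34 CPM (SD, n = 4 each), a log2 fold change of -0.03 (SE 0.11, edgeR adjusted p = 0.948).

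**Figure D3:**
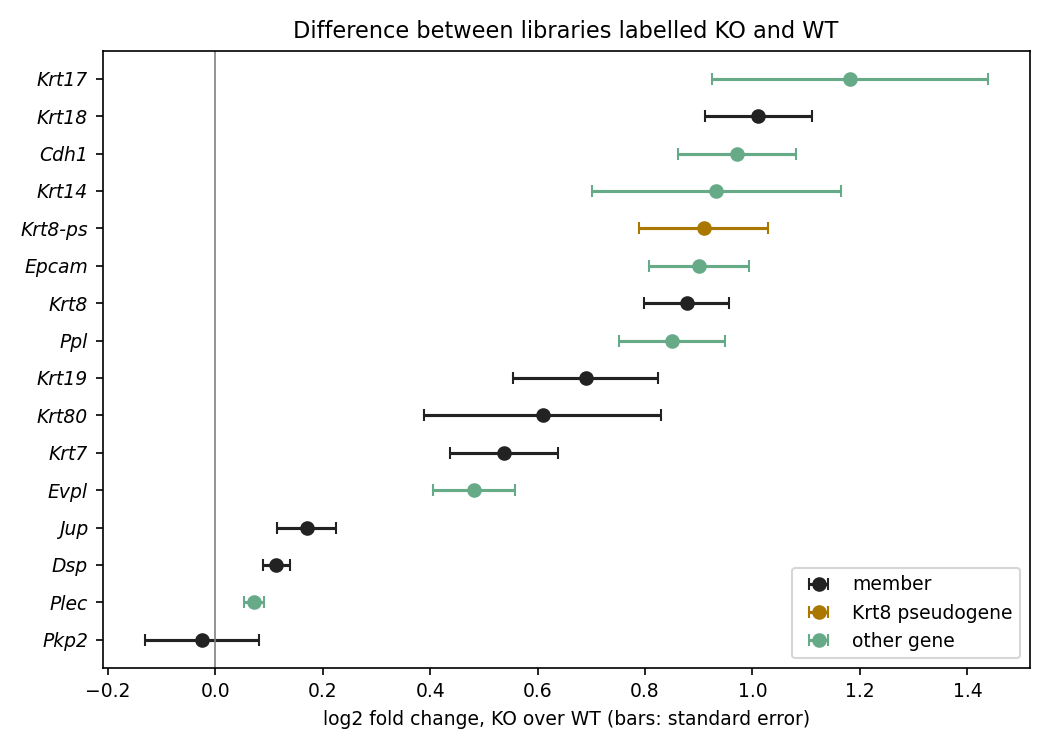
Log2 fold change between libraries labelled KO and WT (horizontal axis) with its standard error for the tested genes of the set (black), the Krt8 pseudogene (brown) and genes of the other lists (green). Krt18 and Krt8 lie at 1.01 and 0.88, close to Epcam (0.90) and Cdh1 (0.97), whereas Dsp (0.11), Jup (0.17) and Pkp2 (-0.03) lie near 0. Epcam and Cdh1 belong to a list of 12 duct markers that ran from 0.40 (Grhl2) to 2.73 (Pkhd1), with a median of 1.24.

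The rest of the desmosome was listed apart: cadherins, other plakophilins and associated proteins. Of 14 listed genes 5 had enough counts to be tested, and 0 were called by edgeR, DESeq2 or limma voom, with 2 at an unadjusted p under 0.05 in edgeR. The desmosomal cadherin Dsg2 was at 11.6 ± 1.32 and 13.9 ± 0.755 CPM (log2 0.27, edgeR adjusted p = 0.0627), with no overlap. Pkp3, the plakophilin of simple and stratified epithelia, was at 0.631 ± 0.106 and 1.27 ± 0.197 CPM, a log2 fold change of 1.01 that just missed the threshold (edgeR adjusted p = 0.0506), also with no overlap. Pkp4, the most abundant of the list, was at 65.0 ± 2.21 and 65.8 ± 1.14 CPM (log2 0.02, edgeR adjusted p = 0.918).

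Among 11 plakins and hemidesmosome genes, 3 rose and 0 fell by edgeR, with 1 below 0 at an unadjusted p under 0.05. DESeq2 called 4 higher and limma voom 5, and both called 0 lower. The 3 called by edgeR were plakins, which link filaments to membranes. Ppl (periplakin) was at 7.82, 9.47, 8.89 and 6.25 CPM in the WT-labelled libraries and 15.2, 13.3, 14.2 and 16.04 CPM in the KO-labelled ones. It had means of 8.11 ± 1.42 and 14.7 ± 1.19 CPM (SD, n = 4 each, log2 0.85, SE 0.10, edgeR adjusted p = 1.81e-13), and the groups did not overlap. Evpl (envoplakin), with which periplakin pairs, rose from 15.4 ± 0.847 to 21.5 ± 1.42 CPM (log2 0.48, SE 0.08, edgeR adjusted p = 1.59e-07). Plec (plectin), a linker found in most cells, rose by a log2 of 0.07 (SE 0.02, edgeR adjusted p = 0.00385), a call lost without KO2 (0.0798), without WT3 (0.0572) or with library totals (0.0627). The median log2 fold change of the 11 was 0.07.

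Keratins of stratified epithelia were mostly too low to test. Of 20 listed, 5 were tested, and 2 rose. Krt17 went from 1.03 ± 0.417 to 2.29 ± 0.477 CPM (SD, n = 4 each, log2 1.18, SE 0.26, edgeR adjusted p = 0.00042), and Krt14, of basal cells, from 1.33 ± 0.286 to 2.55 ± 0.653 CPM (log2 0.93, SE 0.23, edgeR adjusted p = 0.00314). Neither overlapped between groups. The 2 are 91.0% identical over 756 bases, so reads may be shared between them, and Krt5, the usual type II partner of Krt14, had 6 counts in all libraries labelled WT and 3 in all labelled KO.

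Of 13 tested genes of other intermediate filaments 1 rose and 1 fell, with a median log2 fold change of 0.01. Nefm (a neurofilament chain) rose from 2.93 ± 0.34 to 5.55 ± 0.235 CPM (log2 0.92, edgeR adjusted p = 1.52e-06). Vim (vimentin, the filament of mesenchymal and many other cells) fell from 375 ± 8.99 to 342 ± 15.2 CPM (log2 -0.13, SE 0.02, edgeR adjusted p = 4.28e-06). Of 10 genes whose products bind or modify keratins, 0 were called by edgeR, DESeq2 or limma voom, with 1 above and 1 below 0 at an unadjusted p under 0.05 in edgeR and a median log2 fold change of -0.0027. Among these, Csnk1a1 was at 256 ± 3.26 and 258 ± 6.15 CPM.

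Genes near Krt8 and Krt18 gave no call. Within 200 kb of either, 0 of 8 tested genes outside the set were called by edgeR, DESeq2 or limma voom, with 1 above and 1 below 0 at an unadjusted p under 0.05 in edgeR. Around Krt7, 0 of 10 were called by any of the 3 tools and 0 had an unadjusted p under 0.05 in edgeR. Around Krt19, 2 of 6 were called, and these were Krt14 and Krt17.

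Markers of cell types that carry keratins were read beside the set. All 12 markers of duct epithelium were called higher by edgeR, and 11 by DESeq2 and 11 by limma voom (all but Grhl2, edgeR adjusted p = 0.0411), with a median log2 fold change of 1.24 and a summed level of 33.3 to 36.1 CPM in the WT-labelled libraries and 72.8 to 81.0 CPM in the KO-labelled ones. This list is not independent evidence of direction, since genes of it were known to be higher in these libraries when it was drawn up. Epcam, an epithelial adhesion protein, was at 8.67, 8.62, 8.84 and 8.56 CPM against 14.4, 17.6, 18.3 and 14.6 CPM (log2 0.90, SE 0.09, edgeR adjusted p = 2.14e-16). Cdh1 (E-cadherin, log2 0.97), Pax8 (a duct transcription factor, 1.09) and Pkhd1 (a protein of duct cilia, 2.73) rose as well. Krt8 per Epcam was 1.46 ± 0.152 and 1.45 ± 0.234 (SD, n = 4 each), a log2 difference of -0.02 ± 0.14 (SE, exact permutation p = 0.943). Of the 12 markers only Epcam was compared with Krt8 in this way, and its log2 fold change is near that of Krt8 (0.88). The 12 ran from 0.40 (Grhl2) to 2.73 (Pkhd1), so this ratio does not stand for the list. None of the markers was at 0 in all libraries, and their part in the keratin result was not tested.

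The mesothelial and coelomic list, which shares Krt19 with the set, was read without it. In it, 0 of the 9 other genes were called by edgeR, DESeq2 or limma voom and 0 had an unadjusted p under 0.05 in edgeR. The median log2 fold change was 0.01, and the summed level of 359 to 367 CPM overlapped that of 362 to 373 CPM. Upk3b, a mesothelial surface protein, was at 7.09 ± 0.96 and 7.71 ± 0.737 CPM. Of 9 Sertoli cell markers 3 fell, Aard, Nr5a1 and Inha (median -0.09, summed 787 to 815 CPM against 741 to 767 CPM). The other 6 were not called, and 2 of the 9 lay above 0. Among those not called were Amh (log2 -0.0070, edgeR adjusted p = 0.950) and Sox9 (log2 -0.09, edgeR adjusted p = 0.217). Of 6 Leydig cell markers 4 fell (median -0.12, 2866 to 2904 CPM against 2610 to 2654 CPM). Of 7 endothelial markers 3 rose by edgeR, and 2 by DESeq2 and 2 by limma voom, which did not call Pecam1 (median 0.22, 195 to 209 CPM against 220.2 to 229 CPM).

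Blood, stromal and germ-cell markers were counted in the same way. Of 7 erythroid markers 5 fell (median -1.50), from 215 to 230.0 CPM summed to 84.4 to 89.0 CPM. Macrophage markers summed to 21.3 to 21.98 CPM against 16.4 to 19.4 CPM, with 0 of 3 called by the 3 tools and 1 below 0 at an unadjusted p under 0.05 in edgeR. Stromal markers summed to 6264 to 6328 CPM against 6059 to 6213 CPM, with 0 of 7 called by edgeR or DESeq2, 1 called lower by limma voom and 2 below 0 at an unadjusted p under 0.05 in edgeR. Of 9 tested germ-cell markers 2 rose (Dazl and Dppa3) and 2 fell (Piwil2 and Tdrd1), with summed levels that overlapped (168 to 185 CPM and 159 to 172 CPM). Whether any of these cell types carried the keratin RNA was not tested.

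**Figure D4:**
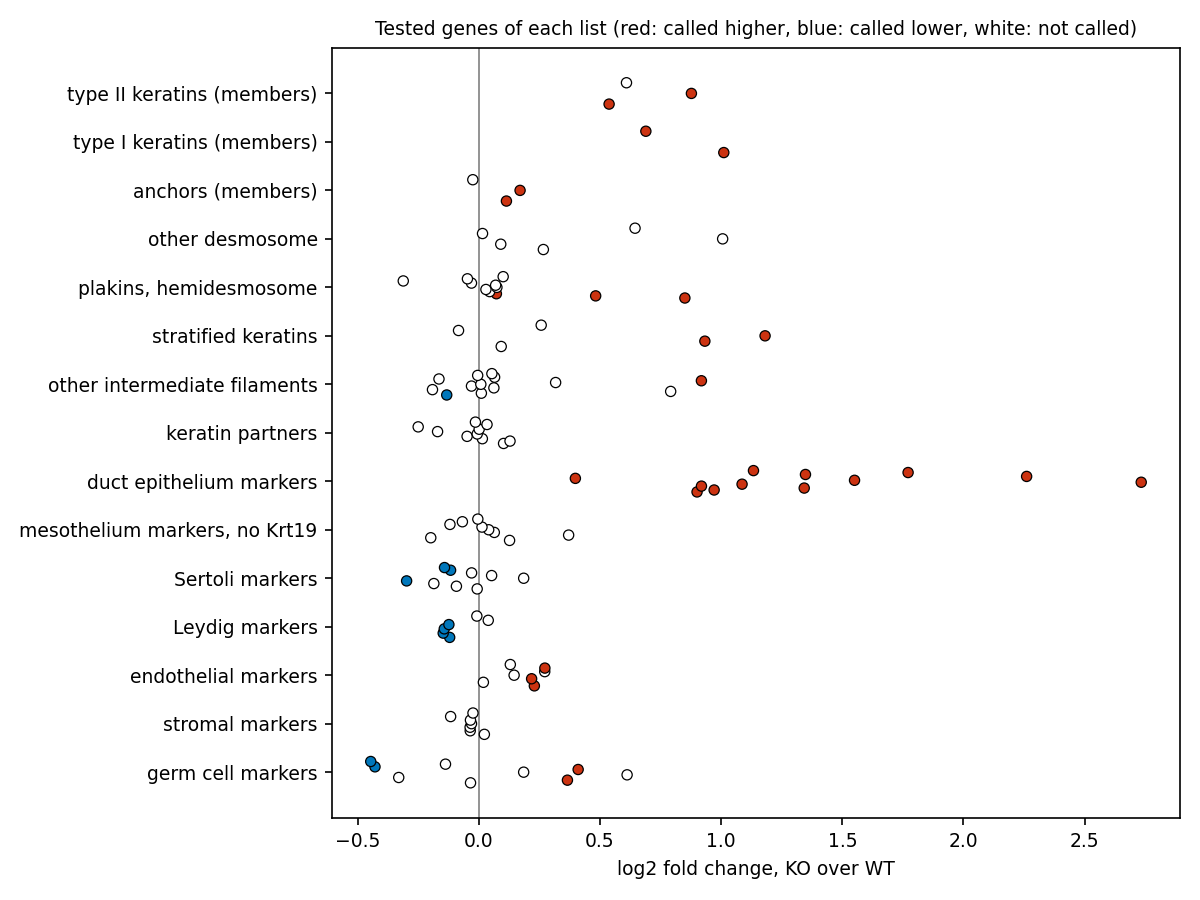
Log2 fold change between libraries labelled KO and WT (horizontal axis) of each tested gene (points, jittered vertically) in the lists named at left; the macrophage and erythroid lists are not drawn. Red points were called higher, blue lower and white not called. All 12 duct epithelium markers are red (called by edgeR), the mesothelium markers without Krt19 are all white, and the anchors lie close to 0.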

How the data were processed

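Germ cells from 8 mouse libraries (4 labelled WT, 4 labelled KO) were sequenced with the SMARTer stranded total RNA pico v2 kit from 1 ng of RNA, per the labels' protocols. The deposited values are raw counts of reads per gene, beside the authors' gene length (other), per the file headers. STAR 2.5.2b, Subread, featureCounts, DESeq2 and GRCm38 are named in the submitters' processing notes. Use of strand and treatment of reads with several positions are not given in the sources used here. The mitochondrial gene mt-Co2 and its nuclear copy Gm28661 had 285160 and 285738 counts, so copies such as Krt8-ps are uncertain. Symbols came from GENCODE M21 for 55141 of 55487 genes.

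Counts were fitted in R 4.3.3 with edgeR 4.0.16 (filterByExpr defaults, TMM, robust quasi-likelihood, no covariates). Count ratios were compared by exact permutation, and near-identical transcripts found with blastn 2.17.0 (at least 90% over 300 bases). Alternatives were 2 other scalings, library totals, 2 filters, DESeq2 1.42.0, limma 3.58.1 voom, no robust dispersion, a replicate block, each library left out, and adjusted p under 0.01 or 0.10. A further alternative, Krt8 and Krt8-ps added, was chosen after seeing the data. Pairs of libraries within a group differed beyond sampling of reads (chi-squared per degree of freedom 1.75 to 5.11), so none was treated as the same library sequenced again. This does not show that the libraries came from separate animals or pools, since separate preparations of 1 pool may also differ. Among libraries labelled KO, pairs with KO1 were at 4.06 to 5.11 and the other pairs at 1.75 to 2.00. Pairs labelled WT were at 2.33 to 4.42.

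Named genes were all 10 of the set, up to 4 called genes of each of the other lists by smallest p (2 by level where none was called), the 6 genes with the most similar profile, copies and overlapping genes, and Rhox10. Genes named beyond this rule (Pkp3, Krt5, Ddx4, Upk3b, Grhl2, Amh, Sox9) were chosen after their values were seen. The members, the 17 lists and the 5 ratios were chosen with earlier results of these data known. Errors are SDs between replicates or standard errors of the fit. They cover no more than these libraries, since the number of animals, litters or pools behind each is not given. Reads carry no molecular identifiers.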

Additional observations from a re-analysis of the deposited data

Results flagged for a closer look

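Among the 108 groups of 4 libraries tested (each tested named gene, and the keratin sum, in each group), 6 held a library far from the other 3, its gap to the nearest over the group's range being above Dixon's 95% value. Chance flags about 1 in 20 groups. Neither the keratin sum nor any of the 8 tested keratin and anchor genes was among them, and Krt20 and Krt23 were not checked. The neurofilament gene Nefm had its lowest library labelled KO at 5.20 CPM. Ywhaz, Cyp17a1 and Ivns1abp each had 1 high library labelled KO, at 241.9, 1208 and 153 CPM. Cd68 and Col3a1 each had 1 high library labelled WT, at 12.21 and 2468 CPM.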

How the results depend on the processing

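The calls of Krt7, Krt8, Krt18, Krt19 and Dsp held in all 20 alternatives run, with log2 fold changes of 0.49 to 0.57, 0.82 to 0.93, 0.92 to 1.12, 0.60 to 0.84 and 0.10 to 0.13 and highest adjusted p of 0.000881, 1.30e-07, 5.07e-07, 0.00394 and 0.0256. The threshold of 0.10 reuses the main fit and cannot lose a call, and adding Krt8-ps to Krt8 leaves the rest of the set nearly unchanged. Jup lost its call in 11 of the 20, among these no filter on low counts (0.0618), library totals (0.0890), no robust dispersion (0.0662) and limma voom (0.144). Krt80 was called only at adjusted p under 0.10. The number of these genes called was 5 to 7, and 5 to 6 with 1 library left out. Over all genes, 1193 were called, 730 with the DESeq2 Wald test, 678 at adjusted p under 0.01, and 898 to 1040 with 1 library left out. Apart from the stricter threshold, the cause was not tested. Of those called, 544 were higher and 649 lower, 426 and 836 with library totals, and 633 and 555 with upper-quartile scaling. The replicate numbers did not pair the libraries: same-numbered libraries correlated at 0.02, 0.13, 0.05 and -0.02 in their deviations from the group means, and not every library correlated best with its own number. With the replicate number as a block, 1249 genes and 5 of the set were called, Jup being at adjusted p = 0.0519. Depth limits Krt20 and Krt23, which were not called without the filter either.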

Other observations

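The genes whose log2 CPM over the 8 libraries was most like that of the summed keratins, of 17583 ranked, were Rprl3, Wnt7a, Dcdc2a, Mecom, Pkhd1 and Ivns1abp, with Pearson correlations of 0.993, 0.993, 0.991, 0.988, 0.988 and 0.988. The libraries share their group, and after the group means were subtracted the correlations were 0.435, 0.798, 0.616, 0.787, 0.166 and 0.428. They are given as a description. Wnt7a, a secreted signalling protein of the female duct epithelium, was at 0.981 ± 0.134 and 3.36 ± 0.489 CPM (SD, n = 4 each, log2 1.77). Mecom, a transcription factor, was at 8.94 ± 0.473 and 14.7 ± 1.21 CPM (log2 0.72). Dcdc2a, a doublecortin-domain protein of cilia, was at 1.70 ± 0.253 and 7.09 ± 0.841 CPM (log2 2.05). Rprl3, first in the ranking, was at 90.3 ± 1.42 and 237 ± 11.5 CPM (log2 1.39). Pkhd1 was at 1.34 ± 0.13 and 8.94 ± 1.19 CPM (log2 2.73), and Ivns1abp at 133 ± 1.51 and 151 ± 1.69 CPM (log2 0.18). Wnt7a and Pkhd1 are also on the list of duct markers.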
